A study of Mus musculus with 2 samples.

Results

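Long intergenic noncoding RNA (lincRNA) genes were followed at their transcription starts in the open chromatin of the mouse urinary bladder. The genes were the 4549 autosomal genes of type lincRNA in the GENCODE M21 annotation whose starts all lay more than 5 kb from any start of a protein-coding transcript, out of 5209 autosomal lincRNA genes and 51229 autosomal genes in all. They had 6251 annotated starts. The choice used the annotation alone and no measured value. Open chromatin was read by DNase-seq, which sequences the ends left by DNase I, an enzyme that cuts DNA mainly where nucleosomes are absent or loose. The study had 1 group of 2 libraries, each from the bladder of a different male B6CASTF1/J mouse aged 36 days, an F1 hybrid of C57BL/6J and CAST/EiJ. No treatment or other genotype was part of it. The tissue was not sorted into cell types as far as the labels say, so each library mixes urothelium, smooth muscle, stroma, vessels and immune cells, and fewer cells with an open start cannot be told apart from a less open start in every cell.

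LincRNAs are transcribed by RNA polymerase II, mostly capped, spliced and polyadenylated like messenger RNAs, and lie between protein-coding genes without overlapping them. Many are made at low levels and in few cell types, while a small number, such as Malat1 and Neat1, are abundant nuclear RNAs of nearly all tissues. Some lincRNA starts behave as ordinary promoters, others coincide with enhancers, and for most annotated lincRNA genes no function is known.

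A start peak was a peak that reached within 500 bases of a start of the gene. The value of a gene was its strongest start peak, with the deposited height of that peak and its percentile among all 19003 start peaks of replicate 1 or 19729 of replicate 2, so that a median start peak sits at 50. The shorter of the 2 deposited peak lists of each library was used unless the longer one is named. The autosomes held 37692 peaks in replicate 1 and 46471 in replicate 2 in the shorter lists, and the absolute sequencing depth is unknown. Of 12 urothelial marker genes 11 had start peaks in both libraries, of 7 smooth muscle markers 5 did, with Acta2 and Des among those without, and of 10 markers of other tissues 1 did, the glial gene Gfap.

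The sequences under 10 of the start peaks are shown as examples, picked after their values were seen, for the motifs they hold or for the known role of their gene. Each is the strongest start peak of replicate 1, in mm10 coordinates and read from the GRCm38.p6 reference (the C57BL/6J genome, with which mm10 shares its coordinates), 5′ to 3′ on the strand of the gene. Capitals mark matches to 10 motifs searched on both strands, given further on with their letters or, for CTCF, by name alone. The first 4 are among the strongest lincRNA start peaks and each holds the E-box CACGTG. They are Gm15408 (chr5:149006801-149006980, plus strand), Gm33195 (chr13:43864601-43864860, plus strand), Gm26901 (chr1:7397821-7398020, minus strand) and Gm31812 (chr1:52113861-52114020, minus strand).
Gm15408: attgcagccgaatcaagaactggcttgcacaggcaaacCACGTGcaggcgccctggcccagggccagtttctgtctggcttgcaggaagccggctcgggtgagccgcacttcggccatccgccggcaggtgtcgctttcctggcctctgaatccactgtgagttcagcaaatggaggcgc
Gm33195: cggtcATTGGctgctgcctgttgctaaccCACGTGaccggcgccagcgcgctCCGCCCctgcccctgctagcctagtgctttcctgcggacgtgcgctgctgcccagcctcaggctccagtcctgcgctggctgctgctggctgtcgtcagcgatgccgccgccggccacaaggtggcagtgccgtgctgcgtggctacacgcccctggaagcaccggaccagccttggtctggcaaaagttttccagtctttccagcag
Gm26901: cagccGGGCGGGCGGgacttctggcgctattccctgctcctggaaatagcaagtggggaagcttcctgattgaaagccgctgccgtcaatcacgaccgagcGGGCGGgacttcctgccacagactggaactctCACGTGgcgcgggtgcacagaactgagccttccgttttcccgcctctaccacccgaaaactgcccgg
Gm31812: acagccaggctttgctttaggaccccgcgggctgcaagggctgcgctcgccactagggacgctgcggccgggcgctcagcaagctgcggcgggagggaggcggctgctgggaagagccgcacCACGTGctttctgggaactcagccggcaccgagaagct
The next 3 belong to lincRNAs with known roles, Malat1 (chr19:5802601-5802780, minus strand), the small nucleolar RNA host gene Snhg6 (chr1:9944041-9944240, minus strand) and the p53-induced Trp53cor1 (chr17:29078941-29079140, minus strand). Malat1 and Trp53cor1 held none of the 10 motifs within the peak, and Snhg6 held 2 ETS and 2 GC-box matches.
Malat1: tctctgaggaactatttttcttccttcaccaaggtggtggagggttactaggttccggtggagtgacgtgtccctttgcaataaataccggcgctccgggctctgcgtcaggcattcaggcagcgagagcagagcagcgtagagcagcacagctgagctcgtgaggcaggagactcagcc
Snhg6: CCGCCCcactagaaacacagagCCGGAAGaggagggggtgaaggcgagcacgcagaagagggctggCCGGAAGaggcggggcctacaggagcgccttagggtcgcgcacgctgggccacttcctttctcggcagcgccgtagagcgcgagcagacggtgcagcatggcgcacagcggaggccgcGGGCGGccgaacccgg
Trp53cor1: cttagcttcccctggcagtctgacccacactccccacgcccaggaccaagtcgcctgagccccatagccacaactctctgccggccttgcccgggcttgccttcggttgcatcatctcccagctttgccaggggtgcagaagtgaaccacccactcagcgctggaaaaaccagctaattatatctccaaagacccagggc
The last 3 hold motifs that were rare around the start peaks of protein-coding genes. In 4632415L05Rik (chr3:19894661-19894900, plus strand) and Gm26841 (chr2:152696861-152697060, minus strand) the longest run of capitals is a match to the motif of the insulator protein CTCF, joined in 4632415L05Rik by a GC box. Gm33201 (chr6:99991181-99991380, minus strand) holds a match to the motif of AP-1, the Jun and Fos family.
4632415L05Rik: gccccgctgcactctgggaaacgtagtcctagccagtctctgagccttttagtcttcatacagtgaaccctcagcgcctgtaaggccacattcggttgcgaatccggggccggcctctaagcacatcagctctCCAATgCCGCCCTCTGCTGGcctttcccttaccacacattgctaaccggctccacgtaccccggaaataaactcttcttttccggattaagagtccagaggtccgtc
Gm26841: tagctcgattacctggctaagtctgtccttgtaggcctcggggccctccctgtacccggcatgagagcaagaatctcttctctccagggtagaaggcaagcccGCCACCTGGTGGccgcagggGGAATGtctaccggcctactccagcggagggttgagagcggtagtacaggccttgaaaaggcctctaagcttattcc
Gm33201: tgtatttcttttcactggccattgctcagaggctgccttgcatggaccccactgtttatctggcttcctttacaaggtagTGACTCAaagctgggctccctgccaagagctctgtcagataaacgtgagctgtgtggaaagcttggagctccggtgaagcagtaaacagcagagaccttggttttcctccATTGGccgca

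Few lincRNA starts were open in the bladder. A start peak was found at 353 of the 4549 genes (7.76%) in replicate 1 and at 439 (9.65%) in replicate 2, and at 321 (7.06%) in both. Over all autosomal genes the shares were 29.1%, 29.9% and 28.1%. Among 20807 protein-coding genes the shares were 59.2% and 59.9%, with 57.5% in both libraries, which is 7.62 and 6.21 times the lincRNA shares. The classes differed by 51.4 and 50.3 percentage points, and the replicates by 1.89 points for lincRNA genes and 0.764 for protein-coding genes. With 1 group of 2 libraries, and since genes are not replicates, no p-value is given.

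**Figure D1:**
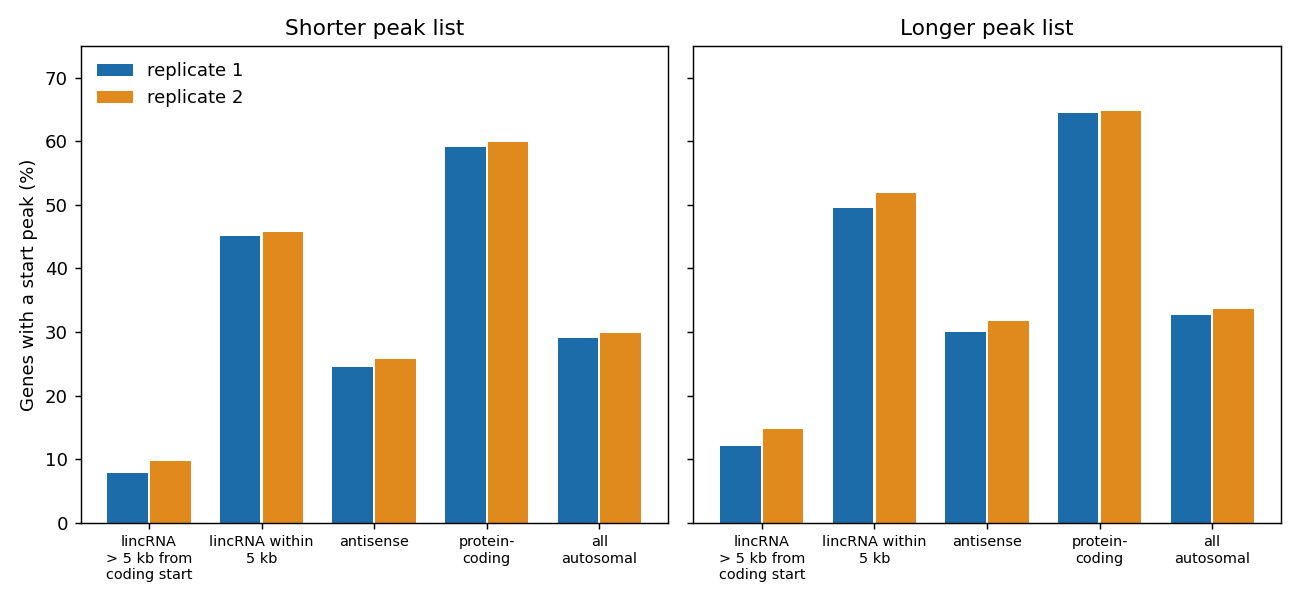
Bars give the percentage of autosomal genes of each class with a start peak (vertical axis) in replicates 1 and 2, for the shorter peak lists on the left and the longer ones on the right. The lincRNA genes over 5 kb from a coding start have the lowest bars in both panels, 7.76% and 9.65% on the left and 12.1% and 14.8% on the right.

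The longer lists raised the lincRNA counts to 550 (12.1%) and 673 (14.8%), with 501 (11.0%) in both, beside 32.7%, 33.6% and 31.5% of all autosomal genes. Of the 660 lincRNA genes left out because they lay within 5 kb of a coding start, 45.2% and 45.8% had a start peak. Where the starts lie close together such a peak can be that of the coding gene, and which gene it belongs to was not tested. Among the genes kept, the shares were 10.8% and 12.9% from 5 to 10 kb, and 10.9% and 14.3% from 20 to 50 kb. Beyond 100 kb they were 5.12% and 6.01%. Antisense genes, which are transcribed across other genes, stood between the lincRNA genes left out and those kept, with 24.5% and 25.7% of 2913. The deposited stretches with a false discovery rate (FDR) of at most 0.05, a more permissive readout, touched the start windows of 593 (13.0%) and 719 (15.8%) lincRNA genes, against 65.2% and 65.8% of protein-coding genes. Of the lincRNA genes without a start peak in the shorter list, 240 (5.72%) and 280 (6.81%) had such a stretch.

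Protein-coding genes have more annotated starts and so more chances of a peak, 4.34 per gene against 1.37. Counted per start, 8.24% and 10.1% of lincRNA starts were at a peak, against 46.1% and 47.0% of coding starts. Over all autosomal starts the shares were 36.0% and 37.0%. Among genes with a single annotated start, the shares were 6.04% and 7.40% of 3607 lincRNA genes and 28.0% and 29.0% of 4406 protein-coding genes. The ratio between the 2 classes was thus 4.63 and 3.92. Of all 31943 autosomal genes with a single start, 9.37% and 10.1% had a start peak, which is nearer to the lincRNA shares.

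Where a lincRNA start was open, its peak was low. The median height of the strongest start peak was 1.56 in replicate 1 and 1.26 in replicate 2 for lincRNA genes, and 3.004 and 2.88 for protein-coding genes. As percentiles among start peaks, the medians were 37.9 and 35.5 against 68.6 and 69.4. Lower still were peaks away from every start, with median heights of 1.19 and 0.955. Only 19 (5.38%) and 16 (3.64%) of the lincRNA genes with a start peak reached the top 10% of start peaks, against 17.1% and 17.6% of the protein-coding genes with one. The lincRNA peaks were also narrower, with median widths of 200 and 203 bases against 260 in both libraries. Each gene was given its strongest start peak, and protein-coding genes have more starts, 4.34 per gene against 1.37. Among lincRNA genes the median percentiles were 35.4 and 33.5 with 1 start and 52.9 and 45.3 with 3 or more. The part of this in the height difference between the classes was not tested.

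The lincRNA peaks were placed at the annotated starts, though less exactly than coding ones. Relative to the nearest start, the median peak centre lay 53 bases upstream in replicate 1 and 55.5 in replicate 2, and 39.4% and 38.7% of centres lay within 100 bases of a start. Coding peaks were centred 26.5 and 32.5 bases upstream, with 68.9% and 68.6% within 100 bases. Coding genes have 4.34 starts each against 1.37, so a coding peak has more starts to lie near. The part of this in the difference was not tested. Around the 5′-most start, 3.19% and 4.07% of lincRNA genes were covered by a peak at the start itself, which is 9.35 and 9.25 times the coverage 2000 bases away. For protein-coding genes the coverage at the start was 40.5% and 41.0%.

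**Figure D2:**
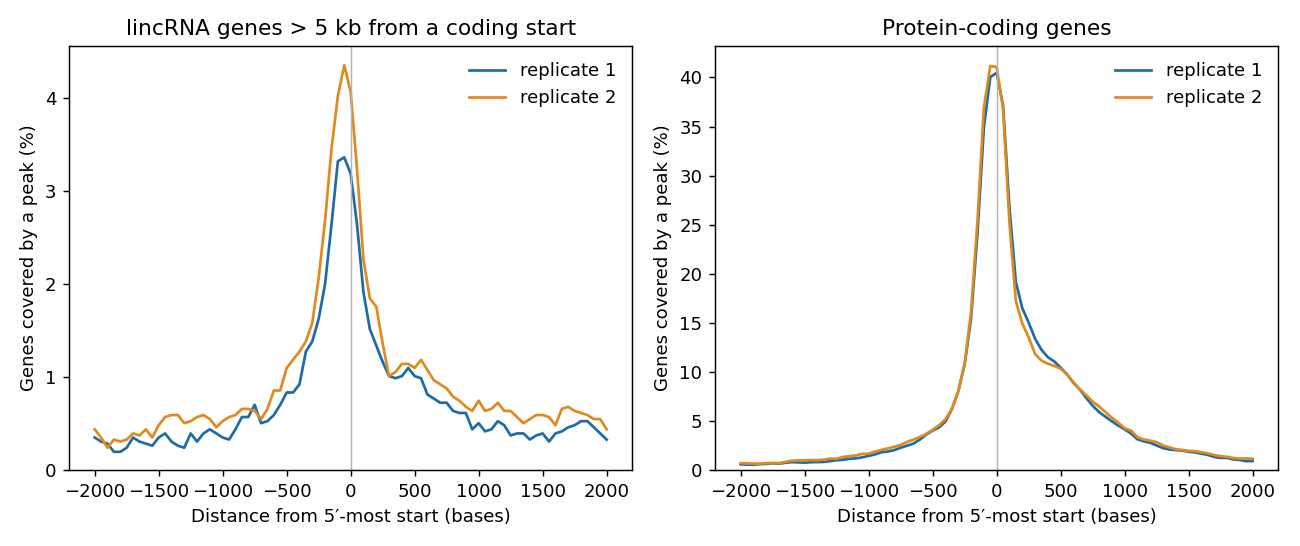
Curves give the percentage of genes covered by a peak (vertical axis, on different scales in the panels) against the distance from the 5′-most annotated start in bases, for lincRNA genes on the left and protein-coding genes on the right. Both classes peak at or just upstream of the start, at 3.36% and 4.35% for lincRNA genes and near 40% for protein-coding genes.

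The replicates ranked the lincRNA starts alike. Over the 321 genes with a start peak in both libraries, Spearman's rho of the heights was 0.921 and Pearson's r of the log10 heights 0.936, which describe these genes and carry no p-value. For 11974 protein-coding genes they were 0.952 and 0.953. The log2 ratio of replicate 2 to replicate 1 had an SD of 0.32 over the lincRNA genes and 0.26 over the coding genes. Of 343 different strongest peaks at lincRNA starts in replicate 1, 312 (91.0%, exact 95% interval 87.4 to 93.8%) overlapped a peak of replicate 2. In the other direction 311 of 427 (72.8%, 68.3 to 77.0%) did. These intervals cover counting error only.

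A start peak in 1 library alone was mostly a weak one. The 32 genes seen only in replicate 1 had a median percentile of 6.74, and the 118 seen only in replicate 2 of 14.8. In the longer list of the other library, 27 of the 32 (84.4%) and 82 of the 118 (69.5%) did have a start peak. The 3 highest of them were Gm26698, at percentile 62.3 in replicate 2, the T-box neighbour Tbx3os2, at 51.8 in replicate 1, and Gm26802, at 47.0 in replicate 2. Each was present in the longer list of both libraries. Their nearest coding starts were those of Irf2bpl at 7.77 kb, Tbx3 at 20.2 kb and the AP-1 gene Fosb at 8.83 kb.

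**Figure D3:**
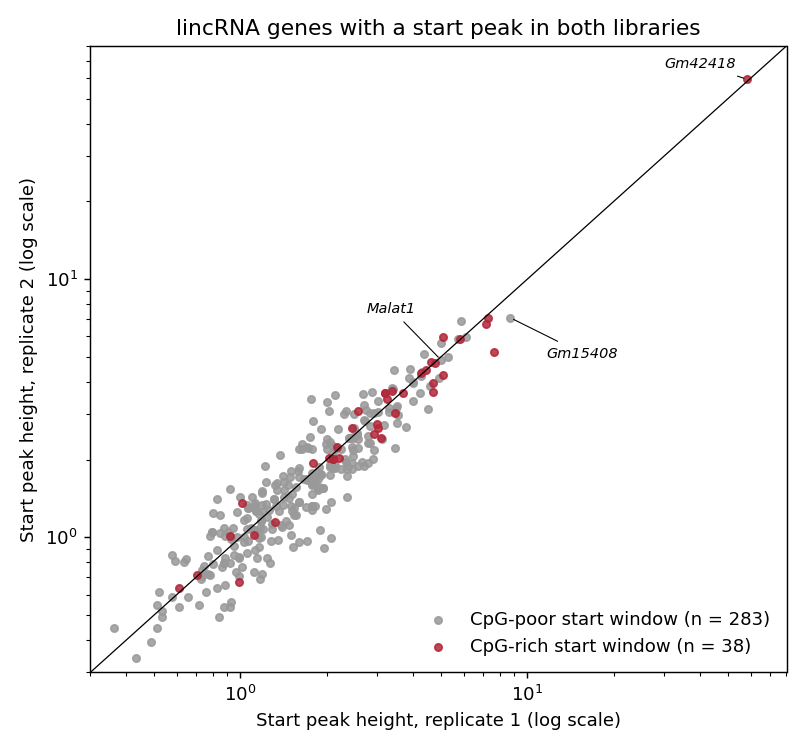
Each point is 1 of the 321 lincRNA genes with a start peak in both libraries, by peak height in replicate 1 (horizontal) and replicate 2 (vertical), on log scales with the line of equality. Points lie along the line (rho = 0.921), the 38 genes with CpG-rich starts sit mostly in the upper part, and Gm42418 stands alone near 59.

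CpG-rich starts were the exception among lincRNA genes, few in number and mostly open. A start was called CpG-rich where its window had at least 0.75 of the CpG dinucleotides that its C and G content predicts and at least 55% GC, the make-up of CpG islands, at which most housekeeping promoters lie. Only 52 lincRNA genes (1.14%) had such a start, and 38 of them (73.1%) had a start peak in each library, the same 38 in both. Of the 4497 CpG-poor lincRNA genes 7.005% and 8.92% had one. Among protein-coding genes 6710 (32.2%) were CpG-rich, of which 93.4% and 93.1% had a start peak, against 42.8% and 44.1% of the CpG-poor ones. Within the CpG-poor class the lincRNA share was lower by 35.8 and 35.2 percentage points, and within the CpG-rich class by 20.3 and 19.98. CpG-rich lincRNA peaks had median percentiles of 70.9 and 72.1, near the 75.4 and 75.6 of CpG-rich coding peaks, while CpG-poor ones had 35.1 and 33.5 against 59.9 and 61.8.

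The 14 CpG-rich lincRNA genes without a start peak in either library included Mir9-3hg, the host of the neural microRNA miR-9, and Gm26917 and AY036118 on chromosome 17. The latter 2 start at positions 39843013 and 39848035, on either side of Gm42418 at 39846958, whose peak lies on a ribosomal RNA pseudogene. The placement of reads at this locus was not tested. Leaving out lincRNA starts with a start of another class of gene within 1000 bases left 39 CpG-rich genes, of which 28 (71.8%) had a start peak in both libraries. Such shared starts were found at 34 of the 321 genes with a start peak in both libraries and at 200 of all 4549, and 12 of the neighbours at the 34 were processed transcripts.

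Small RNA genes stood at 2 of the 15 strongest lincRNA starts and at some of the others. RefSeq places a start of a transfer RNA (tRNA) gene, transcribed by RNA polymerase III, within 500 bases of a start of 10 lincRNA genes. Of these, 7 had a start peak in both libraries, at median percentiles of 86.9 and 86.5. They were Gm11205, Gm11527, Gm45605, Gm40190, B230208H11Rik, Gm46404 and C230035I16Rik. Of 3 with a small nuclear RNA start, 2 had a start peak in both libraries, D230017M19Rik and C920006O11Rik, and of 9 with a small nucleolar RNA start 3 did, Snhg12, Epb41l4aos and Snhg6. Of the 4527 other lincRNA genes 309 (6.83%) had a start peak in both. Which of the genes at such a shared peak the accessibility belongs to was not tested.

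Gene models at the highest transcript support level were more often open than those at the lowest. Genes with more starts were also more often open, and they have more windows in which a peak can fall. Of 1627 genes whose best transcript has the highest transcript support level in GENCODE, 10.6% and 13.0% had a start peak, and of 873 at the lowest level given 3.09% and 3.78%. The shares were 6.04% and 7.40% for genes with 1 start and 15.7% and 21.2% for the 344 with 3 or more. Genes with a RefSeq noncoding transcript starting on the same strand within 500 bases had shares of 10.1% and 13.2%. The 92 genes at which RefSeq places a coding start stood at 31.5% and 32.6%, and the 2585 with neither at 5.18% and 6.27%. Of the 3169 genes with a Gm number as symbol, 6.31% and 7.86% had a start peak. The shares were 23.8% and 24.6% for the 122 whose symbol is no Gm number, Rik clone or accession with a version. These 122 include accessions without a version, such as AW121686. Spliced and unspliced genes lay close together, with 7.73% and 9.63% of spliced and 8.26% and 10% of unspliced genes.

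LincRNA genes whose 5′-most start lay inside a repeat seldom had a start peak, counted at any start of the gene. The 5′-most start of 994 lincRNA genes (21.9%) lay in repeat-masked sequence, and 2.72% and 4.02% of these genes had a start peak, against 9.17% and 11.2% of the others. The 5′-most start was masked in 9.13% of protein-coding genes. Of those genes 48.8% and 49.1% had a start peak, against 60.2% and 61.0% of the other protein-coding genes.

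Footprints, short protected stretches within a peak where a bound protein can shield DNA from DNase I, were common at lincRNA starts. At least 1 deposited footprint lay in the strongest start peak of 91.8% and 92.5% of the lincRNA genes with a peak, and of 97.9% of the protein-coding genes in each library. The mean number per peak was 2.83 and 3.02, against 4.46 and 4.50. The lincRNA peaks were narrower, and per kb of peak the numbers were 12.4 and 13.1 against 15.2 and 15.7. Peaks away from all starts held a footprint in 87.4% and 86.8% of cases. The share rose with peak height, so the classes were compared within ranges of height. Below percentile 25, 80.3% and 80.5% of lincRNA peaks and 84.4% and 84.04% of coding peaks held a footprint. Between percentiles 25 and 50, 98.0% and 98.6% of lincRNA peaks and 97.7% and 97.8% of coding peaks held one. Above percentile 75 the mean number was 4.98 and 5.16 for lincRNA genes and 5.16 and 5.33 for coding genes. Within a height range the 2 classes thus differed little in the share with a footprint, and lincRNA peaks of the middle ranges held fewer of them (3.51 and 3.71 against 4.69 and 4.598 between percentiles 50 and 75). These numbers are per peak, and the part of peak width in them was not tested. The genes with the most footprints were Gm6410, with 8 and 19, Gm20732, with 9 and 10, and Gm27017, which starts opposite the tumour suppressor locus transcript Dleu2, with 7 and 11. The peaks of Gm6410 were wide, at 660 and 1120 bases.

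By replicate means, motif shares at lincRNA start peaks lay between those at coding start peaks and at peaks away from all starts. Motifs were searched in windows of 301 bases centred on the strongest start peaks. There were 343 and 427 windows for lincRNA genes and 11140 and 11300 for protein-coding genes. Median peak widths were 200 and 203 bases at lincRNA starts, 260 at coding starts and 168 and 180 away from starts. Most windows thus reach beyond their peak, and a match in a window need not lie under the peak. The GC box GGGCGG, bound by Sp-family factors, was in 37.9% and 33.0% of lincRNA windows, in 72.7% and 71.3% of coding windows and in 18.98% and 16.1% of windows at the 18689 and 26742 peaks away from starts. The ETS motif CCGGAAG had shares of 9.91% and 11.9%, 18.99% and 18.7%, and 3.13% and 2.76% in the same order. NRF1 (GCGCATGC) had 2.33% and 1.41% in lincRNA windows and 5.93% and 5.91% in coding windows, and the cyclic AMP response element TGACGTCA 2.04% and 1.87% against 3.78% and 3.82%. The CCAAT box differed little between the kinds of window. It was in 33.5% and 30.2% of lincRNA windows, 34.9% and 36.5% of coding windows and 29.1% and 30.4% of windows away from starts. At the 3827 lincRNA genes with no start peak in any list it was in 38.1%. The E-box CACGTG had 10.2% and 8.43% in lincRNA windows and 10.6% and 10.3% in coding windows. Away from starts it had 6.19% and 5.75%, and at those 3827 genes 5.25%.

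Other motifs went the opposite way. The AP-1 motif TGANTCA, where N is any base, was in 15.5% and 16.6% of lincRNA windows, 3.72% and 4.42% of coding windows and 15.1% and 19.02% of windows away from starts. It was also in 11.1% of windows at the 3827 lincRNA genes with no start peak in any list. CTCF was in 7.87% and 7.03% of lincRNA windows, 1.74% and 1.68% of coding windows, 16.2% and 12.9% of those away from starts and 0.183% of closed lincRNA starts. TATAAA was in 5.25% and 7.49% against 3.31% and 3.62% in coding windows, with 15.7% at closed starts, and the TEAD motif GGAATG in 11.95% and 14.5% against 9.48% and 9.90%, with 17.7% at closed starts. Letters that match a motif are a description of the sequence and do not show that a factor was bound.

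**Figure D4:**
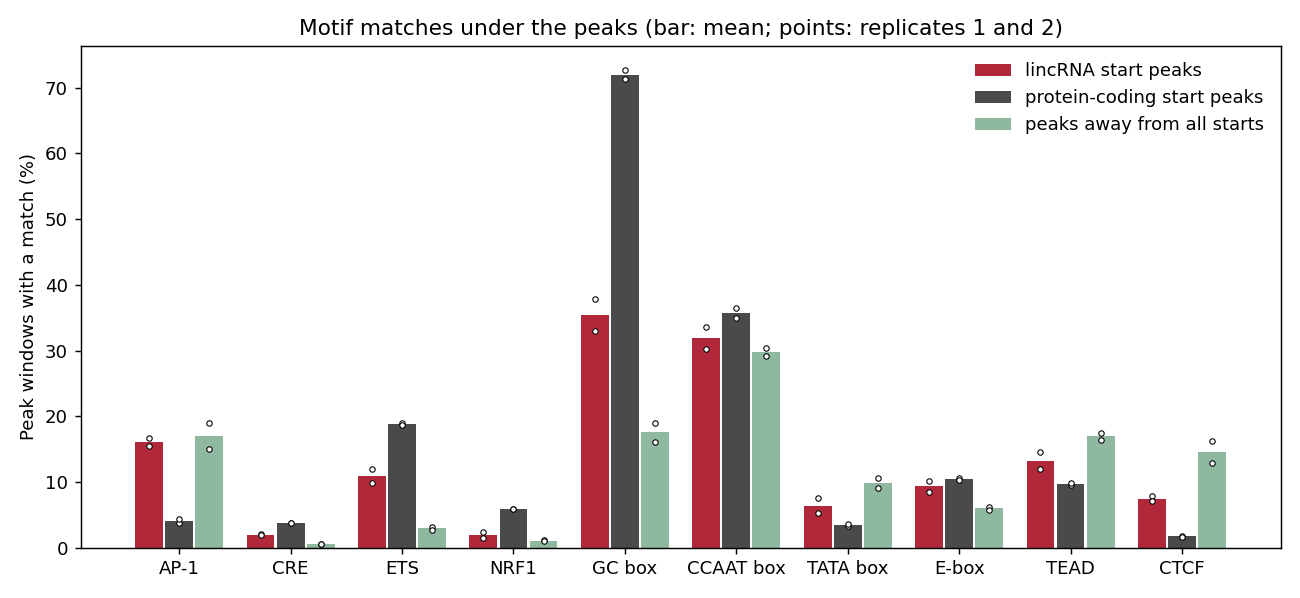
Bars give the mean over the replicates, and points each replicate, of the percentage of 301-base windows with a match to each motif (vertical axis), for lincRNA start peaks, protein-coding start peaks and peaks away from all starts. The lincRNA bar lies between the other bars for each of the 10 motifs, close to the peaks away from starts for AP-1 and closer to coding peaks for the E-box.

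Footprints marked some of these matches far more often than others. Of the 27 CTCF matches in lincRNA windows of replicate 1, 26 overlapped a footprint of the same library, and of the 30 in replicate 2 all 30 did. In coding windows 93.3% and 90.1% of CTCF matches did. Of 237 and 254 GC boxes at lincRNA starts 45.6% and 46.1% overlapped a footprint, and of 62 and 86 AP-1 matches 17.7% and 17.4%, against 21.1% and 26.98% of AP-1 matches at coding starts. The AP-1 letters in lincRNA windows were thus mostly outside deposited footprints. Matches were counted over the whole windows, most of which reach beyond the peak, and the motifs differ in length. The part of either in these shares was not tested. Of the 353 and 439 lincRNA genes with a start peak, 29 and 31 had a CTCF match in the window. None of the 38 CpG-rich genes among them had one. At shares of 7.87% and 7.03% over all lincRNA windows, 38 genes are too few to set this class apart. The 2 genes whose CTCF-bearing sequences are printed above had heights of 4.23 and 3.63 (4632415L05Rik, percentiles 86.5 and 80.03) and 4.50 and 3.15 (Gm26841, percentiles 89.3 and 73.6). The peak of Gm26841 lies within the RefSeq gene H13, and its nearest coding start is 9.66 kb away, that of Mcts2, while RefSeq lists 4632415L05Rik as a transcribed pseudogene.

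The 15 lincRNA genes with the highest start peaks had percentiles between 90.4 and 100 in both libraries. At the top stood Gm42418 on chromosome 17, with heights of 58.4 and 59.4, the highest of all autosomal peaks in each library. Its peak lies on the annotated 18S ribosomal RNA pseudogene Rn18s-rs5, and its nearest coding starts, of the exocrine gland peptides Esp38 at 104 kb and Esp15 at 206 kb, had no start peak. Ribosomal RNA genes lie in many copies in the genome, and the part of reads from such copies in this height was not tested.

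Gm15408 on chromosome 5 followed, with heights of 8.72 and 7.08 (percentiles 99.9 and 99.1). It starts 11.8 kb from the coding gene Gm42791, whose percentiles were 79.2 and 77.7, and 44.3 kb from Hmgb1, which encodes a chromatin protein and stood at 96.4 and 96.3. RefSeq also starts the lncRNA Gm15411 there on the opposite strand. 6720427I07Rik had heights of 7.28 and 7.09, 1700096K18Rik of 7.19 and 6.69, Gm10010 of 5.87 and 6.90, Gm33195 of 6.10 and 5.97, and Gm20732 of 5.83 and 5.85. The neighbours of these 5 differed widely. Cct8l1, 13.9 kb from 1700096K18Rik, had no start peak, while Zfat, 104 kb from Gm20732, stood at 92.2 and 89.4. Gm10010 lies between the tetraspanin gene Tspan9 (57.1 kb, percentiles 46.2 and 53.3) and Tead4, a transcription factor of the Hippo pathway (74.95 kb, 22.2 and 27.98). Gm33195 lies 79.9 kb from Cd83, at 16.9 and 14.3, and 865 kb from the Polycomb partner Jarid2, at 98.05 and 98.3.

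Tmem250-ps had the largest difference between replicates of the 15, with heights of 7.65 and 5.21, and RefSeq lists it as protein-coding. Its neighbours were Nacc2 at 15.98 kb and the pituitary factor gene Lhx3 at 66.1 kb. The peak of 4932412D23Rik (5.09 and 5.96) is shared with a divergent RefSeq start of Zbtb20, a zinc finger repressor. GENCODE's nearest coding start of Zbtb20 lies 31.9 kb away, and since its strongest peak is the same one, its percentiles are equal to those of the lincRNA, at 93.8 and 97.0. 9430037G07Rik had heights of 5.74 and 5.88, beside Trim43a at 18.1 kb with no start peak. Gm26901 had 5.00 and 5.64, and its nearest coding start is that of Pcmtd1, at 292 kb. Gm31812 had 5.27 and 4.97.

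Malat1, an abundant nuclear RNA linked to splicing bodies, had heights of 4.99 and 4.88 (percentiles 93.2 and 91.8) with 4 footprints in each library. Gm11205 (4.76 and 4.73) carries the tRNA gene named above in its peak, and D230017M19Rik (4.63 and 4.79) has starts of the small nuclear RNA genes Gm23472 and Gm24497 beside it. With a window of 250 bases 14 of the 15 had a mean percentile above 90, and the lowest was 89.7. With the stronger 50% of peaks 12 did, the lowest at 86.3. With the 5′-most start alone D230017M19Rik fell to 42.3. Leaving out the starts shared with other classes of gene left 14 of the 15 with a start and 12 with a start peak, Malat1 and D230017M19Rik being those without one.

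Among the 15, which were chosen by height, GC boxes were in the windows of 11 and 12, CCAAT boxes in 9 and E-boxes in 7, while AP-1 and CTCF matches were in none.

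**Figure D5:**
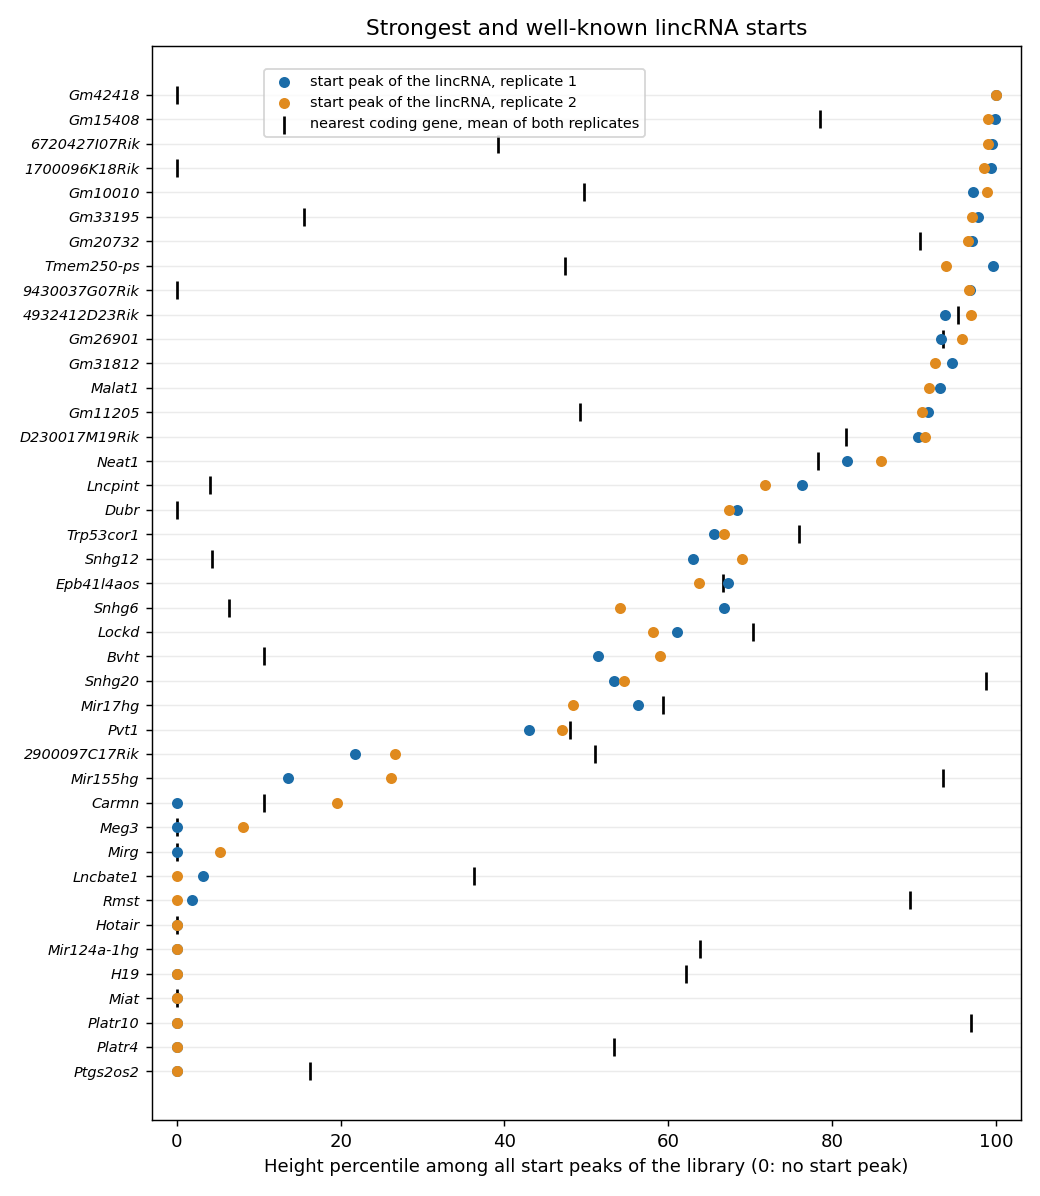
Points give the start peak height percentile (horizontal axis, 0 for no start peak) of the 15 strongest lincRNA genes and of the known ones, in replicates 1 and 2, and black bars the mean percentile of the nearest protein-coding gene, not drawn for Malat1 and Gm31812. The replicates of a gene with a start peak in both lie at most 12.7 percentile points apart, while the neighbours spread over the whole range, from 0 beside Gm42418 to near 99 beside Snhg20.

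Well-studied lincRNAs were open more often than the rest. Of a list of 72 symbols with reported roles, in which Norad stands under 2 names, 27 were among the 4549 genes under the symbol listed; 17 had a start peak in replicate 1, 18 in replicate 2 and 15 (55.6%) in both, against 7.06% of all. The list was drawn up by name, with earlier results of these data known, and is no random sample of lincRNA genes. Its 27 genes had from 1 annotated start (as Hotair) to 14 (Lncpint), against a mean of 1.37 over all 4549. Most had the highest transcript support level. Both features went with a higher share above, and their part in this difference was not tested. RefSeq synonyms place 2 more of its symbols among the 4549, not counted above: Oip5os1, annotated as 1700020I14Rik, with percentiles of 82.4 and 88.9, and Morrbid, annotated as Gm14005, with 24.5 in replicate 1 and no start peak in replicate 2.

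Neat1, the scaffold of the nuclear paraspeckles, had heights of 3.85 and 4.15 (percentiles 81.9 and 86.0). The small nucleolar RNA hosts stood lower, Snhg12 at 63.0 and 69.1, Snhg6 at 66.8 and 54.2, and Snhg20 at 53.4 and 54.6. Lncpint, induced by p53, had percentiles of 76.3 and 71.8, and Trp53cor1, known as lincRNA-p21, of 65.5 and 66.8. Trp53cor1 starts 11.8 kb from Cdkn1a, which encodes the cell cycle inhibitor p21 and stood at 73.04 and 78.98, and had 15 and 4 peaks away from starts within 50 kb, the largest replicate difference in that count among the known genes. Lockd, 8.58 kb downstream of the inhibitor gene Cdkn1b, had 61.0 and 58.2, with Cdkn1b at 68.97 and 71.7. Pvt1, 50.6 kb from the oncogene Myc, had 43.1 and 47.0, and Myc 44.9 and 51.1. Of the 15 known genes with a start peak in both libraries, the nearest coding gene stood higher than the lincRNA in both libraries for 8 and lower in both for 6.

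Dubr had percentiles of 68.4 and 67.4, and Epb41l4aos of 67.3 and 63.7. The microRNA hosts Mir17hg and Mir155hg had 56.4 and 48.4, and 13.6 and 26.2. Norad, annotated as 2900097C17Rik and known for guarding chromosome stability, was low at 21.7 and 26.6 in spite of a CpG-rich start. Of the pair of cardiovascular lincRNAs on chromosome 18, Bvht stood at 51.4 and 59.0, while Carmn, a smooth muscle RNA, had no start peak in replicate 1 and 19.6 in replicate 2. The imprinted Meg3 and Mirg were seen in replicate 2 only, at 8.10 and 5.31, and H19 in neither. Rmst and Lncbate1 were seen in replicate 1 only, at 1.85 and 3.20. No start peak was found at Miat, Hotair, Platr4, Platr10 or Mir124a-1hg in any list, and Ptgs2os2 had one in the longer lists alone. At Hotair both neighbouring Hoxc genes, Hoxc11 at 6.70 kb and Hoxc12 at 11.0 kb, also had none.

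Some of these calls turn on the rule for a start peak. With a window of 250 bases neither Lockd nor Mir17hg had a start peak in either library. Where 50% or more of the peak had to lie inside the window, the mean percentile of Lockd was 29.8 and Mir17hg had none. Snhg20 had none with the 5′-most start alone, and Mir155hg and Norad had none with the stronger 50% of peaks. With starts shared with another class of gene left out, Neat1 and Snhg20 had none and Pvt1 had a mean percentile of 8.72.

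The nearest coding gene was open somewhat more often where the lincRNA start was open. Of the 321 lincRNA genes with a start peak in both libraries, 240 (74.8%) had a nearest coding gene with a start peak in both, against 2677 of the 4078 (65.6%) with no start peak in either library. Open lincRNA starts lay nearer to coding starts, at a median of 45.2 kb against 80.5 kb. Compared at equal distance, the shares were 66.7% against 65.3% from 5 to 10 kb and 60.8% against 59.3% from 10 to 20 kb. Farther away they were 78.6% against 65.4% from 20 to 50 kb, 82.3% against 67.0% from 50 to 100 kb, and 75.6% against 66.8% beyond. The open lincRNA genes in these ranges numbered only 24 and 51 up to 20 kb, and 98, 62 and 86 farther away. Whether the difference changes with distance was not tested. The share of lincRNA genes with a start peak was itself flat up to 50 kb, at 10.9% and 14.3% from 20 to 50 kb, and fell to 5.12% and 6.01% beyond 100 kb.

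Open lincRNA starts also lay among more peaks away from starts. Within 50 kb the mean number of such peaks was 1.89 and 2.58 for genes with a start peak in both libraries and 1.04 and 1.51 for those with none. Protein-coding genes with and without a start peak had 2.07 and 2.80, and 1.14 and 1.50. Split by the state of the start, lincRNA and coding genes thus had similar numbers of such peaks around them.

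The distance rule cut through genes of low or no signal. Just outside it were Gm15729 at 4987 bases, Mir142hg at 4964 and Gm26669 at 4960, none with a start peak. Just inside were AW121686 at 5002 bases and Gm37552 at 5027, also with none, and Gm44658 at 5030, with a percentile of 18.7 in replicate 2 alone.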

How the data were processed

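Nuclei of bladder tissue from 2 male animals, 1 library each, were treated with DNase I and sequenced, per the labels, with aligner and callers not given in the sources used here. For each library the authors deposited 2 peak lists, a footprint list and a list of FDR values, each made per library from filtered alignments to mm10, per the text deposited with them. The deposited peak height, a signal in column 7 on a scale that no header states, was read as it stands, and heights were compared between libraries as percentiles. The deposited footprints all carry the value 0.01, with no statement of what it limits, and only their positions were used. The deposited FDR values, adjusted p-values listed up to 0.05, served only to find stretches in start windows. Absolute depth is unknown, and the reference holds the C57BL/6J alleles only.

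Starts came from GENCODE M21 on the 19 autosomes, and RefSeq starts, repeat masking and sequence from GRCm38.p6, whose chromosome lengths all peaks fitted. An overlap of 1 base counted, and a distal peak was one outside the start windows of every gene. Python 3.11.15, numpy 2.4.6, scipy 1.17.1 and pysam 0.24.0 were used, and the overlap code was tested on simulated data. The genes named were the 15 lincRNA genes with the highest mean percentile, all members of the list of 72 known symbols, the 3 with the most footprints and the 3 highest seen in 1 library, with their coding neighbours, some of which are not reported here; the CpG-rich genes, the genes at small RNA starts and the CTCF and AP-1 examples were named after their values were seen. Alternatives were the longer lists, other windows, starts, peak strengths, distances and CpG limits, and each library alone. The genes and lists were chosen with earlier results of these data known. No test was run, since the study has 1 group, so values are given for each library.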

Additional observations from a re-analysis of the deposited data

How the results depend on the processing

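The low share of lincRNA genes with a start peak in both libraries, and its distance from the protein-coding share, held in every setting tried, with the coding share between 4.92 and 12.4 times the lincRNA share; the lowest ratio came from genes with 1 annotated start, a setting chosen after seeing the data (5.38% against 26.5%). The main values were 7.06% for lincRNA genes, 57.5% for coding genes, a median percentile of 36.7, footprints in 92.1% of start peaks, 91.0% of replicate 1 peaks overlapped in replicate 2, 74.8% of open lincRNA genes with an open neighbour and 73.1% of CpG-rich lincRNA genes open. With the longer lists they became 11.0%, 62.7%, 33.5, 80.7%, 89.7%, 79.6% and 78.8%. A window of 1000 bases gave 8.84%, 58.9%, 39.1, 92.9% with footprints, 76.1% of neighbours and 75% of CpG-rich genes; one of 250 bases gave 56.1% for coding genes, 32.7, 71.2% and 71.2%. The 5′-most start alone gave 52.1% for coding genes, 32.8, 66.9% of neighbours and 71.2% of CpG-rich genes. The stronger 50% of peaks gave 3.96%, 49.1%, 32.3, 99.5% with footprints, 94.1% overlapped, 65.6% of neighbours and 59.6% of CpG-rich genes. Asking for 50% or more of the peak inside the window gave 91.6% with footprints. The CpG-rich share was 77.3% for lincRNA genes over 10 kb from coding starts, 73.6% over 2 kb, 70.8% with distances to all transcripts of coding genes, 71.8% without shared starts (genes with no other start are then not counted) and 61.3% at the lower limits of 0.6 and 50% GC. Replicate 2 peaks were overlapped by replicate 1 in 72.8% of cases. Each library alone gave 7.76% and 9.65% for lincRNA genes, 59.2% and 59.9% for coding genes, medians of 37.9 and 35.5, footprints in 91.8% and 92.5%, 76.5% and 77.7% for neighbours and 73.1% for CpG-rich genes. The nearest coding gene was open more often beside open than beside closed lincRNA starts in every setting with both libraries, by 7.26 to 12.3 percentage points against 9.12 in the main one. Leaving out lincRNA genes at a RefSeq coding start, chosen after seeing the data, gave 6.60% and a median of 36.8. The cause of these shifts was not tested. No paired analysis was possible because the study has a single group.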
